A study of Mus musculus with 16 samples.

Results

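The heterogeneous nuclear ribonucleoprotein (hnRNP) genes Hnrnpa1, Hnrnpa2b1, Hnrnpa3, Hnrnpc, Hnrnpd, Hnrnph1, Hnrnpk, Hnrnpl, Hnrnpll and Hnrnpu were examined in CD8+ T cells of mice after Tardbp, the gene of the RNA-binding protein TDP-43, was targeted. These 10 genes were taken by their GENCODE M21 symbol out of 55536 annotated genes, and all 10 were among the 16650 genes that passed the filter on low counts. Of their 130 annotated transcripts 96 passed the same filter, and 144 of the 125520 nodes in the deposited splicing table, a node being a stretch of RNA that is kept or left out as a unit, lay in them.

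The study compared 2 groups of 8 libraries each. Naive CD8+ cells of OT-I mice, whose transgenic T cell receptor sees SIINFEKL of ovalbumin, received the nuclease Cas9 by electroporation together with 1 guide RNA. This was a control guide (Control gRNA) or one that targets Tardbp (Tardbp gRNA), so each library comes from a treated population and not from a clone. Both groups were transferred into C57BL/6J hosts, received the peptide with agonist antibodies to OX40 and 4-1BB, and were sorted as CD8+ donor cells after 4 days per the labels (the methods state somewhat less). The paper also names a stimulation of the purified cells, and whether RNA was taken before or after it is not clear. Estimated counts assigned to annotated genes totalled 73649630 to 93893357 per Control library and 56016533 to 94801105 per Tardbp library.

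hnRNP proteins coat nascent RNA and decide which splice sites and cleavage sites are used, and several also act on export, translation or decay of mRNA. TDP-43 is itself built like an hnRNP, with paired RNA recognition motifs and a glycine-rich tail, and it binds hnRNP A1 and A2/B1 through that tail. Many hnRNP genes hold down their own level through splice forms that end translation early, and in T cells hnRNP L and hnRNP LL are best known for keeping variable exons out of CD45.

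The targeted gene was lower in every library of its group. Tardbp had a mean of 192.4 ± 13.3 CPM (counts scaled to library size by TMM; SD, n = 8) in Control gRNA against 134.9 ± 11.3 (SD, n = 8) once targeted, a log2 fold change of -0.51 (SE 0.0558, adjusted p 8.07e-07 by edgeR's quasi-likelihood test with Benjamini-Hochberg adjustment over all genes tested). Of the labelled cell type, the markers Cd8a, Cd8b1, Cd3e, Trac and Thy1 were all abundant, and all 5 rose in Tardbp gRNA, with a median log2 fold change of 0.62. Cd4, Foxp3 and the 3 B cell markers stayed under 3 CPM in every library, whereas the red cell markers Hba-a1, at 0.119 to 4.82 CPM without TMM in the Control libraries against 3.13 to 54.2 in the Tardbp libraries, and Hbb-bs, at 0.0661 to 5.25 against 2.21 to 58.3, both rose. The sum of 3 myeloid markers (Lyz2, Csf1r and Itgam) was 14.1 to 33.1 against 19.2 to 80.4. Of these Lyz2 rose (log2 fold change 1.58, edgeR adjusted p 0.00417), while Itgam had -0.57 (edgeR adjusted p 0.0671). The part that RNA of these other cells has in the hnRNP values was not tested. The RNA concentration before dilution, deposited without a unit, was 34.9 to 197.1 for Control against 10.1 to 24.0 for Tardbp libraries, so this measure did not overlap between the groups. In RNA pooled from a sorted population, fewer cells that express a gene and less RNA per cell cannot be told apart.

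To ask whether the hnRNP family moved with Tardbp, gene expression of the 10 members was compared between the groups. Of the 10 genes 8 fell, none rose, and Hnrnpa3 and Hnrnpd did not pass the test. Over all tested genes 46.7% were called, 23.3% lower and 23.5% higher. The median log2 fold change of the 10 was -0.27, against 0.05 for all 16650 genes. For 6 of the 10 genes (Hnrnpa1, Hnrnpa2b1, Hnrnpc, Hnrnpk, Hnrnpl and Hnrnpll) the highest Tardbp value was under the lowest Control value, as for 10.3% of all genes, while for none of the 10 the reverse held (6.61% of all). Together the 10 genes took 0.678 to 0.751% of all counts in the Control libraries against 0.554 to 0.638% in the Tardbp libraries, again without overlap.

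**Figure D1:**
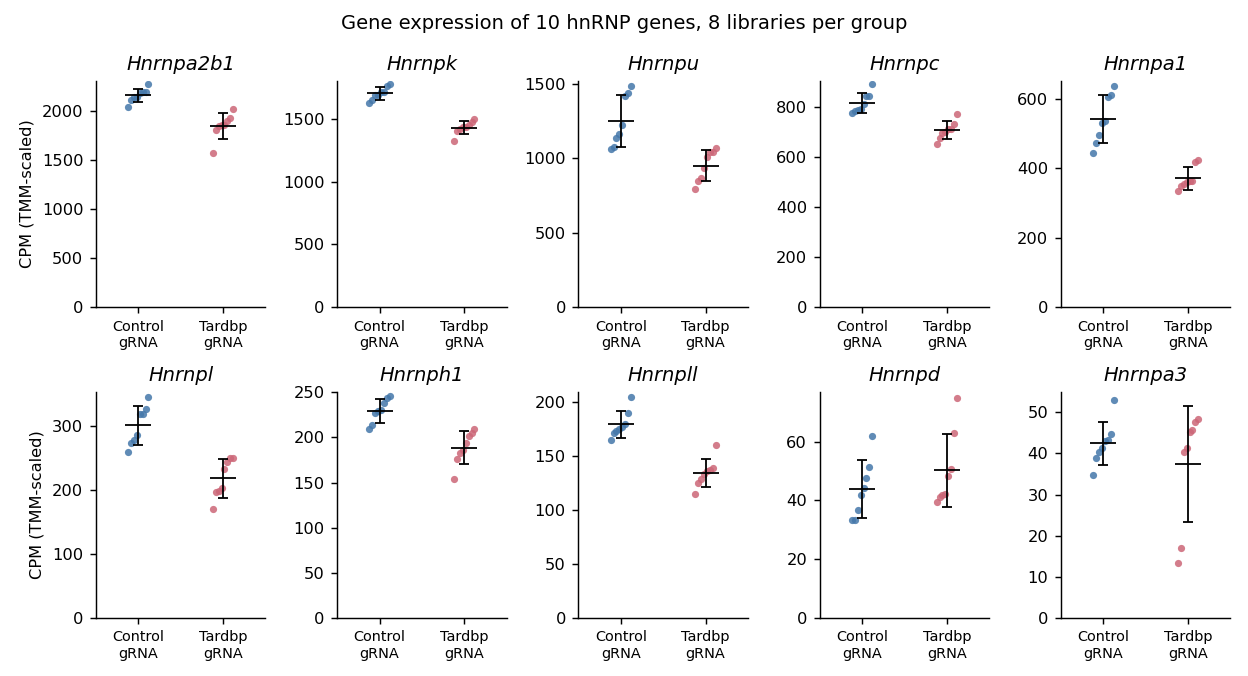
TMM-scaled CPM (y axis, from 0, a separate scale for each gene) of the 10 hnRNP genes in the 8 Control gRNA and 8 Tardbp gRNA libraries. Points are libraries in order of their value, horizontal marks the means and whiskers the SD. The groups are separate for 6 genes, touch for Hnrnph1 and Hnrnpu, and overlap widely for Hnrnpd and Hnrnpa3, where 2 Tardbp libraries lie far below the rest.

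Within the family the levels differed widely, as read from transcript counts per length scaled to a fixed total (TPM). In Control gRNA Hnrnpa2b1 was the most abundant at 2184 ± 71.3 TPM (SD, n = 8), followed by Hnrnpk at 1084 ± 38.9, Hnrnpc at 748 ± 49.2, Hnrnpa1 at 476 ± 45.4 and Hnrnpu at 313 ± 52.1. The first 4 of these each lay above the next gene in every Control library. Hnrnpu and Hnrnpl (234 ± 25.8 TPM) overlapped, while Hnrnph1 (182 ± 9.78) and Hnrnpll (102 ± 8.35) stood apart from each other. Hnrnpd (39.7 ± 11.1) and Hnrnpa3 (27.2 ± 4.49) were the lowest and overlapped. Tardbp itself, at 139 ± 22.3 TPM, lay between Hnrnph1 and Hnrnpll and its range overlapped both. The members that fell included the most abundant ones, and both that did not pass were the least abundant as counted without annotated copies.

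The A/B proteins, glycine-rich shuttling factors that mostly repress exons, came first. Hnrnpa1 (ENSMUSG00000046434.16, plus strand of chromosome 15, 103240432 to 103246692, GRCm38) had 445, 533 and 636 CPM as the lowest, median and highest Control values and 334, 361 and 423 in Tardbp gRNA. All 8 Tardbp libraries were below all Control libraries, and the mean was 68.4% of that in Control gRNA. The log2 fold change, -0.55 (SE 0.0731, edgeR adjusted p 7.24e-06), was the lowest of the 10.

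Hnrnpa2b1 (ENSMUSG00000004980.16, minus strand of chromosome 6, 51460932 to 51469894), which encodes the A2 and B1 proteins, had 2041, 2165 and 2268 CPM in Control gRNA and 1565, 1854 and 2022 in Tardbp gRNA. The ranges were separate but close, with 1 Tardbp library well under the other 7. The log2 fold change was -0.23 (SE 0.041, edgeR adjusted p 0.00018), less than in Hnrnpa1 in size.

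Hnrnpa3 (ENSMUSG00000059005.13, plus strand of chromosome 2, 75659261 to 75669407), the third A/B gene, had 34.9, 42.2 and 53.0 CPM in Control gRNA and 13.2, 43.3 and 48.5 in Tardbp gRNA. The medians were close and 2 Tardbp libraries were lower than any Control library. The log2 fold change was -0.18 (SE 0.217, edgeR adjusted p 0.517).

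For this gene the count may depend on how reads that match more than 1 gene were placed. The annotation holds 24 genes, called copies here, that share at least 100 stretches of 50 bases with Hnrnpa3, and they carried 403% of its own count. The shared part was 9.16% (Gm6641) to 100% (Gm5641) of the stretches of a copy. Which gene the reads came from cannot be told from counts. When the counts of these copies were added to Hnrnpa3, a choice made after the data were seen, the sum was 213 to 252 CPM in the Control libraries against 98.2 to 196 in the Tardbp libraries. The groups no longer overlapped, and the log2 fold change was -0.46 (SE 0.105, edgeR adjusted p 0.00141). Without Tardbp replicate 3, the lowest library, it was -0.38 (SE 0.0596, edgeR adjusted p 6.44e-05). The same addition left Hnrnpa1 (9 copies, 9.46% of its count) at -0.55, Hnrnpk (2 copies, 7.67%) at -0.26 and Hnrnpc (1 copy, 0.942%) at -0.21, and the other 6 members had no such copy.

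**Figure D2:**
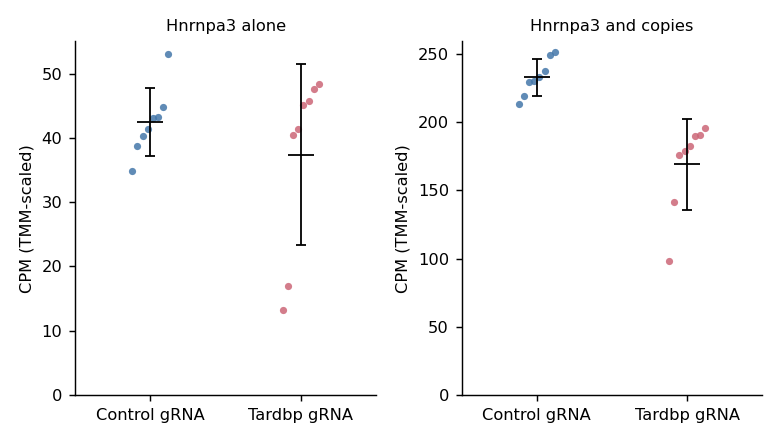
TMM-scaled CPM (y axis, from 0) of Hnrnpa3 as counted and of Hnrnpa3 with its 24 annotated copies, in 8 Control gRNA and 8 Tardbp gRNA libraries. Points are libraries in order of their value, marks the means and whiskers the SD. The groups overlap on the left, and on the right the highest Tardbp library, at 196 CPM, is below the lowest Control library, at 213 CPM.

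Hnrnpl and Hnrnpll, the paralogs that bind CA-rich RNA and repress the variable exons of CD45, both fell. Hnrnpl (ENSMUSG00000015165.16, plus strand of chromosome 7, 28808541 to 28822266) had 260, 303 and 346 CPM in Control gRNA and 170, 219 and 251 in Tardbp gRNA. Hnrnpll (ENSMUSG00000024095.15, minus strand of chromosome 17, 80029487 to 80062334), known to rise when T cells are activated, had 165, 176 and 205 CPM in Control gRNA and 115, 134 and 160 in Tardbp gRNA. Neither gene overlapped between the groups. Their log2 fold changes were alike, at -0.46 (SE 0.081, edgeR adjusted p 0.000125) for Hnrnpl and -0.42 (SE 0.0579, edgeR adjusted p 1.01e-05) for Hnrnpll.

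Hnrnpk (ENSMUSG00000021546.18, minus strand of chromosome 13, 58391142 to 58403343), whose KH domains bind C-rich RNA, had 1631, 1708 and 1782 CPM in Control gRNA and 1323, 1436 and 1506 in Tardbp gRNA. The groups were clearly apart and the spread was narrow in both. The log2 fold change of -0.25 (SE 0.0298) had the smallest adjusted p of the 10 genes, 1.87e-06 by edgeR.

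Hnrnpc (ENSMUSG00000060373.15, minus strand of chromosome 14, 52073377 to 52104028), which binds uridine tracts and packages nascent RNA, had 778, 805 and 894 CPM in Control gRNA and 655, 708 and 772 in Tardbp gRNA. The highest Tardbp library was only just below the lowest Control library. The log2 fold change was -0.21 (SE 0.0377, edgeR adjusted p 0.000176), the mildest of the 8 that fell.

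Hnrnpu (ENSMUSG00000039630.10, minus strand of chromosome 1, 178321108 to 178337797), the scaffold attachment factor that ties RNA to chromatin, had 1064, 1192 and 1483 CPM in Control gRNA and 794, 970 and 1067 in Tardbp gRNA. Of the 8 Tardbp libraries 7 were below every Control library. Its log2 fold change was -0.40 (SE 0.0816, edgeR adjusted p 0.000603). Hnrnph1 (ENSMUSG00000007850.16, plus strand of chromosome 11, 50376990 to 50386528), a binder of G runs, had 209, 230 and 246 CPM in Control gRNA and 154, 190 and 210 in Tardbp gRNA, also with 7 of 8 libraries below the Control range. Its log2 fold change was -0.29 (SE 0.0567, edgeR adjusted p 0.000436).

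Hnrnpd (ENSMUSG00000000568.15, minus strand of chromosome 5, 99955935 to 99978938), the AU-rich element factor AUF1 that marks cytokine mRNAs for decay, was the one member with a higher mean in Tardbp gRNA. It had 33.2, 43.1 and 62.0 CPM in Control gRNA and 39.3, 45.3 and 74.9 in Tardbp gRNA. The ranges overlapped over most of their length, and the log2 fold change, 0.20 (SE 0.149, edgeR adjusted p 0.294), did not pass.

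With RNA concentration (log2) entered as a covariate, 5 of the 8 calls remained past the threshold, and Hnrnpc (-0.12, edgeR adjusted p 0.312), Hnrnpl (-0.46, 0.0775) and Hnrnpu (-0.25, 0.358) were lost. The concentration did not overlap between the groups, so its part and that of the guide cannot be told apart in that fit. Over all genes, calls in that fit dropped from 7783 to 2697, and those lower from 3877 to 1687. In the libraries numbered 4 to 8 taken on their own, all 8 genes were called lower, from -0.18 for Hnrnpc to -0.60 for Hnrnpa1, beside 3549 genes called lower in all.

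Of 17 further hnRNP genes, 8 fell, 1 rose and 8 did not pass, with a median log2 fold change of -0.15. Among all genes tested, 46.7% were called, 23.3% lower and 23.5% higher. The lowest were Raly, a relative of hnRNP C, at -0.80 (SE 0.102, edgeR adjusted p 4.48e-06), Ptbp1, the polypyrimidine tract binder hnRNP I, at -0.62 (SE 0.0859, edgeR adjusted p 1.15e-05), and Hnrnpul1, a relative of hnRNP U, at -0.50 (SE 0.0832, edgeR adjusted p 7.90e-05). The one that rose was Cirbp (hnRNP A18), a cold-inducible RNA-binding protein, at 0.78 (SE 0.146, edgeR adjusted p 0.000255), and the next in order among the called genes were Hnrnph2 at -0.16 and Hnrnpf at -0.26. Genes of the cell cycle moved beside the family, with 11 of 12 called lower and a median of -0.50, Ccnb2 at -0.03 not passing (edgeR adjusted p 0.555). The part that a change in dividing cells has in the hnRNP values was not tested.

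**Figure D3:**
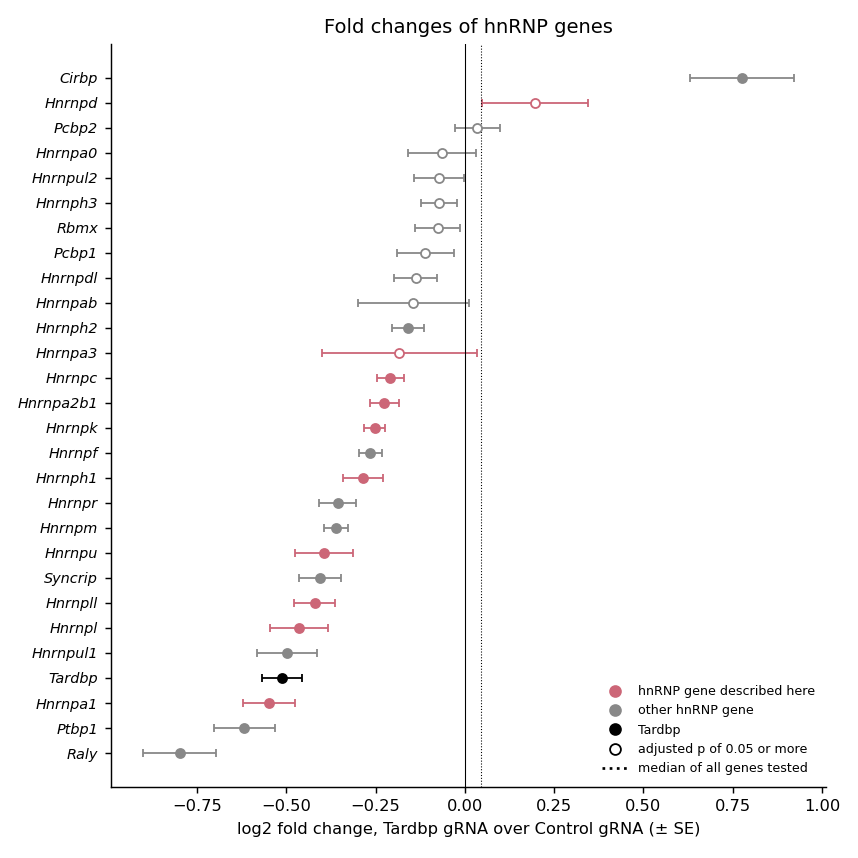
Log2 fold change of Tardbp gRNA over Control gRNA (x axis) with its SE (whiskers) for the 10 hnRNP genes, 17 further hnRNP genes and Tardbp. Filled points passed an edgeR adjusted p of 0.05, open points did not, and the dotted line is the median of all genes tested at 0.05. Most points lie left of that line, from -0.80 (Raly) upward, and only Cirbp is filled on the right.

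Likeness across libraries was described by Pearson's r of log2 CPM over the 16 libraries after group means were removed, among 8610 genes. The gene most like Hnrnpa1 was Gm10052 (r 0.95), a processed pseudogene whose stretches of 50 bases all occur in Hnrnpa1. The closest to Hnrnpa2b1 was Anp32e (0.92), to Hnrnpa3 Atrip (0.91), to Hnrnpc Ptges3 (0.83), to Hnrnph1 mt-Nd1 (0.94), to Hnrnpl Lrpprc (0.92) and to Hnrnpu Wrnip1 (0.96). No hnRNP gene was the closest match of another. Each match is the highest of 8610 values and so is high by selection. Between members r ran from -0.66 (Hnrnpd with Hnrnpk) to 0.81 (Hnrnpa2b1 with Hnrnph1).

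Exons that distinguish splice forms of the family are shown on the transcript strand, read from GENCODE M21 transcripts (GRCm38), with the part of interest in capitals. Exon 2 of 12 of Hnrnpa2b1 (chr6:51467391-51467426, minus strand, 36 bases, all coding) separates the B1 form, which keeps it, from A2.
Hnrnpa2b1 exon 2: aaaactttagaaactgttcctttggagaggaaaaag

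Exon 9 of 12 of Hnrnpa2b1 (chr6:51464428-51464547, minus strand, 120 bases, all coding) encodes a stretch of the glycine-rich tail, and is shown because its inclusion varied most among the core exons of the family. Capitals mark the motif GGNGG, counted with overlaps on the transcript strand alone, of which it holds 12. The motif occurs at least once in 36.9% of core exons of like length.
Hnrnpa2b1 exon 9: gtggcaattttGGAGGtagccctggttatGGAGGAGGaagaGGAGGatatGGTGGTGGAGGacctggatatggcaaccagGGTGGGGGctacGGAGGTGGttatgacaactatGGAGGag

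Splicing was compared to find events that depend on TDP-43. In the deposited table each node has a Psi (percent spliced in) as 1 value per group with no spread, and the read depth behind each value is unknown. For an exon it is the fraction of transcripts holding the exon. For nested 3' ends it is the fraction using each end. The study called a node where its probability of a difference exceeded 0.9, Psi moved by more than 0.1 and total reads passed a minimum. The last could not be applied here, since the table used holds no read number. By the probability and the Psi difference alone, 2 of the 144 member nodes passed, both in Hnrnpk, against 0.473% of all nodes. They are 3' ends, of which 2.08% passed over the whole table. Both lie in the same last exon and compete, so a lower Psi at an end is met by a higher Psi elsewhere. The 2 passes are thus not independent, and these rates cannot show an excess in the family. Of the 102 core exons of the family none passed, against 0.147% of all core exons, and 91 of the 102 had a Psi over 0.95 in both groups. Including these, 8 member nodes exceeded the probability alone (0.738% of all did), the other 6 by a smaller difference.

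The 2 nodes of Hnrnpk are alternative 3' ends of its last exon. In the authors' deposited table the innermost of 3 nested ends (chr13:58391337-58392416, 1080 bases, noncoding) had Psi 0.535 with the control guide and 0.384 with the Tardbp guide. The outermost (chr13:58391142-58391238, 97 bases) had 0.143 and 0.276, and the middle one (chr13:58391239-58391336, 98 bases) 0.322 and 0.340. Psi of the outermost end was thus higher in Tardbp gRNA and that of the innermost lower, the ends lying 195 bases apart. As the 3 ends share the transcripts between them, these 2 changes are not independent.

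Transcript counts gave values per library for the transcripts that stop at these ends. Hnrnpk-202, the annotated transcript that reaches the outermost end, took a share of the gene's count of 0.0298, 0.0331 and 0.056 (lowest, median and highest) in Control gRNA and 0.0577, 0.0694 and 0.089 in Tardbp gRNA. The groups did not overlap, though the gap was narrow. The share rose by 0.0326 (SE 0.00591, limma adjusted p 0.00579), and the transcript itself rose from 69.1 ± 19.7 to 102 ± 16.9 CPM (SD over 8 libraries each; edgeR log2 fold change 0.57, adjusted p 0.0191) while the gene as a whole fell. This transcript also differs from the others at its first exon, so its count does not rest on the 3' end alone. Hnrnpk-205, the listed transcript that stops at the innermost end, held a share of only 0.00344 ± 0.00135 and 0.00281 ± 0.000996 (SD over 8 libraries each; limma adjusted p 0.775), far under Psi there. The share of Hnrnpk-202 was also under Psi of its own end, so the counts do not resolve these ends as Psi does. Hnrnpk-201, the most abundant transcript, ends at the middle node and had a share of 0.538 ± 0.0918 and 0.58 ± 0.0595 (SD over 8 libraries each; limma adjusted p 0.65), while Hnrnpk-216, with the same end, fell by 0.47 on the log2 scale (edgeR adjusted p 0.017).

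**Figure D4:**
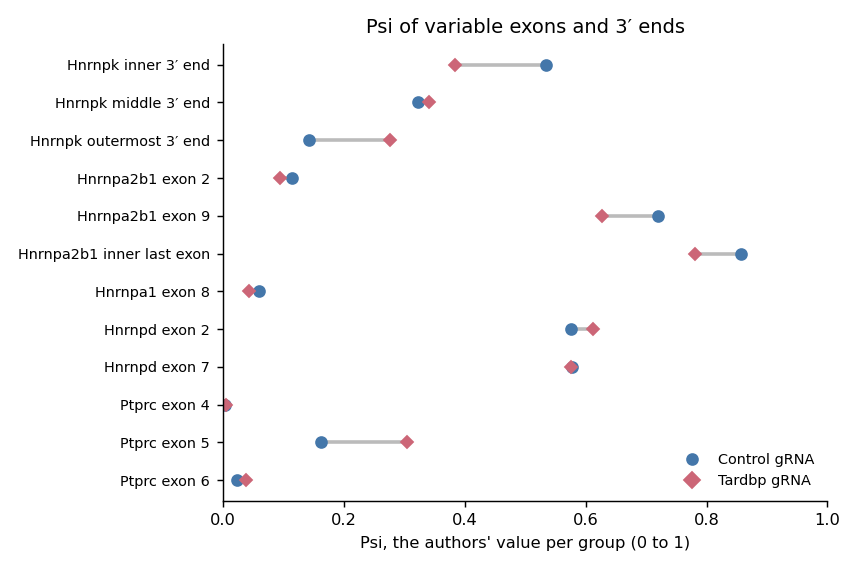
Psi (x axis, 0 to 1) in the authors' table for 9 nodes of the family and 3 variable exons of Ptprc, with 1 value for Control gRNA (circle) and 1 for Tardbp gRNA (diamond) and no error. The widest gaps are those of the inner and outermost 3' ends of Hnrnpk (0.535 to 0.384 and 0.143 to 0.276) and of Ptprc exon 5 (0.162 to 0.305), and the values of Hnrnpd exon 7 coincide.

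Hnrnpa2b1 had the widest difference among core exons. Exon 9, printed above with its 12 GGNGG motifs, had Psi 0.72 with the control guide and 0.627 with the Tardbp guide. Its inclusion per library, rebuilt as the share of length-scaled transcript counts that hold the exon, was 0.608, 0.619 and 0.624 in Control gRNA and 0.533, 0.577 and 0.596 in Tardbp gRNA. Every Tardbp library was below every Control library, whose values hardly varied. The rebuilt inclusion fell by 0.0468 (limma adjusted p 0.0166, over 21875 rebuilt nodes), under the 0.1 set for a call.

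The inner of the alternative last exons of Hnrnpa2b1 (chr6:51462760-51463254, 495 bases, noncoding) had a Psi of 0.857 and 0.78. Rebuilt inclusion was 0.811, 0.82 and 0.838 in Control gRNA and 0.723, 0.753 and 0.797 in Tardbp gRNA, again without overlap. It fell by 0.069 (limma adjusted p 0.00246). These were the 2 of 36 rebuilt member nodes with an adjusted p under 0.05, against 0.407% of all rebuilt nodes. Both were rebuilt from the same transcript counts, Hnrnpa2b1-203 and Hnrnpa2b1-204 holding both nodes and Hnrnpa2b1-201 neither. The 2 are thus not independent, and these rates cannot show an excess in the family. None of the 36 also passed the difference of 0.1 (0.151% of all did). An unadjusted p under 0.05 by limma was met by 6, and the rate over all rebuilt nodes at that cut was not computed. Exon 2 was mostly skipped, with a Psi of 0.114 and 0.0941 and a rebuilt inclusion of 0.305 ± 0.0101 and 0.286 ± 0.0192 (SD over 8 libraries each; limma adjusted p 0.464).

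Of the leading transcripts of Hnrnpa2b1, the 3 that end in the inner last exon fell, Hnrnpa2b1-204 from 622 ± 34.6 to 449 ± 52.8 CPM (edgeR log2 fold change -0.47, SE 0.0669, adjusted p 0.000132), Hnrnpa2b1-203 from 679 ± 35.9 to 525 ± 58.8 (-0.37) and Hnrnpa2b1-210 from 481 ± 29.3 to 376 ± 40.2 (-0.36; SD, n = 8 per group throughout). None of the 3 overlapped between the groups. Hnrnpa2b1-201, which ends further out and lacks exons 2 and 9, had 0.22 on the log2 scale (SE 0.147, edgeR adjusted p 0.369). The share of Hnrnpa2b1-204, which keeps exon 9 and skips exon 2, fell from 0.282 ± 0.0108 to 0.245 ± 0.0166 (SD over 8 libraries each; limma adjusted p 0.00716).

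**Figure D5:**
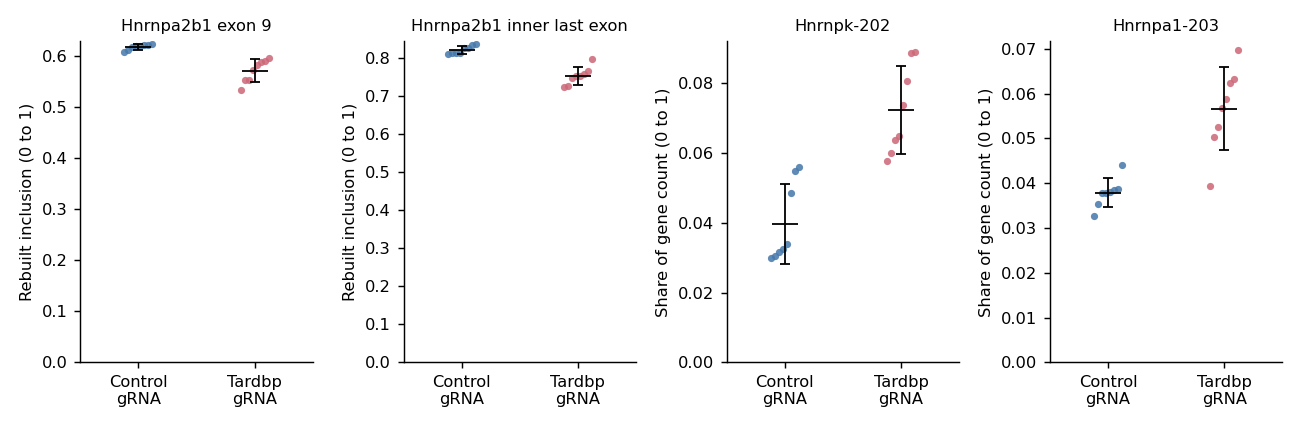
Rebuilt inclusion of exon 9 and of the inner last exon of Hnrnpa2b1, and the share of the gene's count taken by Hnrnpk-202 and Hnrnpa1-203 (y axes, fractions from 0), in 8 Control gRNA and 8 Tardbp gRNA libraries. Points are libraries in order of their value, marks the means and whiskers the SD. The groups are apart in the first 3 panels, and in the last 1 Tardbp library, at 0.0393, lies within the Control range.

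Exon 8 of Hnrnpa1, which also lies in the part that encodes the glycine-rich tail, had Psi 0.0604 with the control guide and 0.0427 with the Tardbp guide, so the short A1 form dominated in both. The rebuilt inclusion was 0.394 ± 0.0238 and 0.333 ± 0.107 (SD over 8 libraries each; limma adjusted p 0.835), far above Psi in both groups, with 1 Tardbp library at 0.0694. Hnrnpa1-202, the most abundant form and one that lacks the exon, fell from 264 ± 29.9 to 199 ± 41.5 CPM (edgeR log2 fold change -0.41, adjusted p 0.0193). Hnrnpa1-203, annotated as a target of nonsense-mediated decay, took a share of 0.0326, 0.038 and 0.0441 in Control gRNA and 0.0393, 0.0578 and 0.0698 in Tardbp gRNA. Of the 8 Tardbp libraries 1 lay within the Control range, and the share rose by 0.0188 (SE 0.00347, limma adjusted p 0.00649). Its own level was 20.9 ± 2.84 and 20.7 ± 3.42 CPM (SD over 8 libraries each; edgeR log2 fold change -0.01, adjusted p 0.964), while the gene as a whole fell. The other decay target, Hnrnpa1-204, had shares of 0.127 ± 0.102 and 0.0615 ± 0.0753 (limma adjusted p 0.503), and all unproductive forms of Hnrnpa1 together had 0.165 ± 0.102 and 0.118 ± 0.081 (limma adjusted p 0.630).

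In Hnrnpa3 a 3' end (chr2:75665398-75665839, 442 bases, noncoding) had a Psi of 0.551 and 0.488. The 57-base exon 2 of Hnrnpd (chr5:99976534-99976590) had 0.577 and 0.612, and its 147-base exon 7 (chr5:99963731-99963877) 0.578 and 0.575. These exons set the 4 forms of AUF1, and neither had a probability over 0.9. The members Hnrnpc, Hnrnpd, Hnrnph1, Hnrnpl, Hnrnpll and Hnrnpu had no node over that probability. Among their nodes the Psi difference still reached 0.138 in size in Hnrnpd and 0.121 in Hnrnpll, past 0.1 but without that probability.

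Over all members, 14 of the 96 transcripts tested were called, 12 lower and 2 higher, against 8.14% lower and 8.5% higher of all 40897. In the share test 14 of the 96 had an unadjusted p under 0.05 by limma. The rate over all shares at that cut was not computed. None of the 96 passed on both adjusted p and a difference of 0.1 (0.632% of all shares did). On the adjusted p alone 4 passed (4.46% of all did). The fourth of these was Hnrnpu-205, a noncoding processed transcript whose share rose from 0.007 ± 0.00181 to 0.0139 ± 0.00249 (SD over 8 libraries each; limma adjusted p 0.00454) without overlap. The coding Hnrnpu-201, with 0.983 ± 0.0066 of the count in Control gRNA, fell by 0.45 on the log2 scale (edgeR adjusted p 0.00298). Among the other leading transcripts Hnrnpl-209 fell by 0.51 (edgeR adjusted p 0.00352) and Hnrnph1-201 by 0.41 (edgeR adjusted p 0.00315). For Hnrnpc-209, Hnrnpd-203 and Hnrnpa3-203 the log2 fold changes were -0.15, 0.09 and -0.34 and did not pass (edgeR adjusted p 0.455, 0.87 and 0.865).

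Because hnRNP genes are known to make forms that are not translated in full, the share of counts in transcripts annotated as nonsense-mediated decay, retained intron or processed transcript was compared. None of the 10 members was called, against 8.48% of the 8671 genes tested by limma, 7.97% being higher. The rate over all genes at an unadjusted p under 0.05 was not computed, and 3 members were under that cut. These were Hnrnpa2b1, at 0.0493 ± 0.00505 and 0.0657 ± 0.0136 (limma adjusted p 0.0617), Hnrnpu, at 0.0166 ± 0.0066 and 0.0254 ± 0.00519 (limma adjusted p 0.0859), and Hnrnpd, at 0.0808 ± 0.0692 and 0.149 ± 0.0581 (limma adjusted p 0.229; SD, n = 8 per group throughout). The value for Hnrnpa2b1 passed once counts were scaled by transcript length (limma adjusted p 0.0305). It did not pass with forms annotated as nonsense-mediated decay alone (limma adjusted p 0.618).

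Hnrnpll had the highest unproductive share of the family, at 0.488 ± 0.0609 in Control gRNA and 0.422 ± 0.117 in Tardbp gRNA (SD over 8 libraries each; limma adjusted p 0.461). Nearly all of it was Hnrnpll-203, which holds an extra exon, shown because it carries the stop that ends the annotated reading frame early. This is exon 7 of 14 (chr17:80044940-80045022, minus strand, 83 bases, not a multiple of 3). Its first 44 bases are annotated as coding and capitals mark the stop.
Hnrnpll unproductive exon: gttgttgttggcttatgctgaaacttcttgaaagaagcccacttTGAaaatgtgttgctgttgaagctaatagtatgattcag

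Hnrnpll-203 had 69.2, 79.4 and 106 CPM in Control gRNA and 30.3, 53.0 and 84.4 in Tardbp gRNA, and fell by 0.69 on the log2 scale (SE 0.177, edgeR adjusted p 0.0125). The ranges overlapped, with the spread wide in both groups. The coding form Hnrnpll-205 had -0.31 on the log2 scale (SE 0.142, edgeR adjusted p 0.162), and the share of Hnrnpll-203 was 0.463 ± 0.0616 and 0.397 ± 0.116 (SD over 8 libraries each; limma adjusted p 0.517). The forms also differ at their 3' ends, so the counts of Hnrnpll-203 do not rest on this exon alone, and Psi for the exon was not analysed here.

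Targets known for the family were set beside it. Ptprc encodes CD45, whose variable exons 4, 5 and 6 are kept out by hnRNP L and hnRNP LL. Exon 5 (chr1:138120020-138120166, minus strand, 147 bases, all coding) is shown as the target that moved most, with the motifs TGTG (1 match) and CACA (2 matches) in capitals on the transcript strand. These occur in 55.7% and 49.9% of core exons of like length.
Ptprc exon 5: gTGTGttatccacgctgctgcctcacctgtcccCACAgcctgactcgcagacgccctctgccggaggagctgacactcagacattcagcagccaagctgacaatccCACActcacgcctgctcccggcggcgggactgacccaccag

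In the authors' table exon 5 had Psi 0.162 with the control guide and 0.305 with the Tardbp guide, past the limits on probability and Psi difference. Psi of exon 4 was 0.00395 and 0.00513, and that of exon 6 was 0.0229 and 0.0391. The rebuilt inclusion of exon 5 was 0.144, 0.429 and 0.682 in Control gRNA and 0.353, 0.571 and 0.668 in Tardbp gRNA, with wide overlap (limma adjusted p 0.708). For exons 4 and 6 it was far above Psi, at 0.254 ± 0.239 and 0.257 ± 0.238 in the Control libraries and 0.334 ± 0.141 and 0.338 ± 0.139 in the Tardbp libraries (SD over 8 libraries each; limma adjusted p 0.934 and 0.930). Neither Hnrnpl nor Hnrnpll was tested for a link to this exon.

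Pkm, whose exons 9 and 10 exclude each other under hnRNP A1, hnRNP A2/B1 and Ptbp1, kept to the form with exon 10. Exon 9 had a Psi of 0.0166 and 0.0197, and exon 10 had 0.99992 and 0.99714, with neither over the probability of 0.9. In Malt1, a target of hnRNP U, the widest difference was 0.931 and 0.895 at a 158-base exon, also under that probability. This exon was picked for its difference alone, not as the exon that hnRNP U holds out.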

How the data were processed

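RNA of sorted CD8+ T cells was compared in 16 libraries grouped by the labels, 8 per guide. The paper names 8 individual recipient mice, but no label ties a library to a mouse, so p-values measure the spread between libraries. Alignment by the authors used HISAT2 2.1.0 and mm10, followed by SAMtools 1.9, and the deposited estimated counts came from StringTie 2.1.0 as whole numbers that are not normalized. The deposited estimated counts ran at 1.89 to 2.02 per read pair, the count of read pairs being the authors' facility's, so counts are not independent molecules. Psi, from Whippet, was deposited by the authors as a fraction per group. The version of Whippet is not given in the sources used here. The deposited probability of a difference, also a fraction, served only as the study's threshold of 0.9. The study's minimum of total reads could not be applied, since the table used has no read column. The deposited difference of Psi was not used. The orientation of the Psi columns follows the order of group names and the exon cut by the guide. Left out of each count table were 10 columns with no matching sample, and from that of genes 26248 lines with a bare number for an identifier.

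Genes and transcripts were compared with edgeR 4.0.16 under R 4.3.3 (quasi-likelihood, TMM, filterByExpr with minimum count 10, minimum total 15 and proportion 0.7) by two-sided tests, called at 0.05 after Benjamini-Hochberg adjustment. Shares, unproductive shares and rebuilt inclusion were tested with limma 3.58.1 at a mean count of at least 50 and, for shares and inclusion, a difference over 0.1. All adjustments ran over every feature tested. Annotated genes were counted as copies of a member when they shared at least 100 stretches of 50 bases with it. Alternatives used DESeq2 1.42.0, other scalings, filters, covariates, the replicate block and each library left out. Tests were tested on simulated data.

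The members, lists and tests were chosen with earlier results of these data known. Named were all members and Tardbp, the called further hnRNP genes with the 3 highest and 3 lowest fold changes, called member transcripts with a share of at least 0.05 and the leading transcript of each member, nodes past the thresholds or with the largest Psi difference over a probability of 0.9, exons known to vary, and known targets. A few items that this rule names are not reported here.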

Additional observations from a re-analysis of the deposited data

Results flagged for a closer look

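Among 62 groups of 8 values described here, 9 values stood apart from the other 7 of their group by Dixon's criterion. Chance flags about 1 in 20 independent groups, or 3.1 of 62. These groups reuse the same 16 libraries and are not independent, so 9 beside 3.1 cannot show an excess. Tardbp replicate 3 was low in Hnrnpa2b1, at 1565 CPM against 1807 to 2022 in the others, and in Tardbp itself, at 110.4 CPM against 129.8 to 147.2. Both calls held without it. The remaining 7 were unproductive shares, none of which belonged to a called difference. Hnrnpa1 was at 0.316 in Tardbp replicate 5 (others 0.0665 to 0.107), Hnrnph1 at 0.304 in Tardbp replicate 2 (0.0947 to 0.151), Hnrnpa3 at 0.0934 in Tardbp replicate 4 (0.0112 to 0.0495) and Hnrnpu at 0.0372 in Tardbp replicate 6 (0.0215 to 0.0276). In Control gRNA, Hnrnpl was at 0.144 in replicate 6 (0.0538 to 0.0914), Hnrnpu at 0.0313 in replicate 8 (0.0103 to 0.0189) and Hnrnpc at 0.000281 in replicate 5 (4.89e-05 to 0.000111).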

How the results depend on the processing

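The 8 members called lower were called lower with DESeq2, RLE and upper-quartile scaling, without the filter on low counts, within numbers 4 to 8, and without any 1 of the 16 libraries. Over all genes, 4030 were called lower with DESeq2, 3900 with RLE and 3086 with upper-quartile scaling, against 3877 in the fit reported above. Without the filter on low counts 3651 were, and without any 1 library 3692 to 4166. The letter M or F given for each library, added as a covariate after seeing the data, left all 8 as well (3 M and 5 F in Control gRNA, 5 M and 3 F in Tardbp gRNA). In that fit 3732 of all genes were called lower. With RNA concentration (log2) entered as a covariate, 5 of 8 members and 5 of 8 further hnRNP genes were called lower, as were 1687 in place of 3877 of all genes. As the concentration did not overlap between the groups, that fit cannot separate it from the guide. Hnrnpa3 passed with its copies added. DESeq2 called 22 member transcripts, the 14 of edgeR among them. With counts scaled by length, 1 unproductive share passed (Hnrnpa2b1), and with a Psi difference over 0.05, 5 member nodes did. The rates over all transcripts with DESeq2, and over all unproductive shares and nodes under these settings, were not determined. The causes were not tested. Upper-quartile scaling raised the median of all genes to 0.12 and changed the direction of no member or Tardbp.

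Library numbers are shared by the groups, but same-numbered libraries deviated together by more than 0.1 only for numbers 1 (0.16) and 2 (0.11), and 2 of 8 Control libraries correlated best with their own number, so they were not taken as pairs. With the number as a replicate block, 8 members, 9 further hnRNP genes and 11 cell cycle genes were called lower, Tardbp was at -0.51, and 12 member transcripts, 3 shares by adjusted p and 0 unproductive shares were called. Of all genes 3802 were called lower with that block. The rates over all transcripts, shares and rebuilt nodes with it were not determined. Rebuilt inclusion passed the adjusted p in 1 member node in place of 2, exon 9 of Hnrnpa2b1 then having an adjusted p of 0.104, and Hnrnpk-202 had 0.0549 for its share.

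Values for single exons rest on estimated transcript counts, and Psi carries no depth or spread.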
